A study of Mus musculus with 9 samples.

Results

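Ccl2 encodes monocyte chemoattractant protein-1, a secreted chemokine, and Ccr2 encodes the G protein-coupled receptor through which monocytes respond to it. Both were followed here in isolated kidney glomeruli of obese diabetic mice, with and without enarodustat. The probes named Ccl2 or Ccr2 were taken from the 56605 non-control probes of the arrays, which gave 1 probe for each of these 2 genes, out of 37074 gene names in the array files. CCL2 is made by injured or inflamed resident cells and by leukocytes, usually after NF-kappaB is activated by cytokines or by toll-like receptors. CCR2 sits mainly on classical monocytes, which follow CCL2 out of the bone marrow and into tissue, and its signal runs through an inhibitory G protein, phosphoinositide 3-kinase gamma and Rac. In diabetic kidney disease the pair is known as a route by which monocytes enter the glomerulus.

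Enarodustat-treated ob/ob samples, vehicle-treated ob/ob samples and vehicle-treated wild-type samples were compared, 3 of each, 9 in all. All mice were male, of the BTBR strain and 22 weeks old, and all ate medicated or vehicle food for 18 weeks. The ob/ob genotype removes leptin, a satiety hormone, and makes BTBR mice obese and diabetic, so the effects of leptin loss, obesity and diabetes cannot be told apart. Enarodustat blocks prolyl hydroxylases and so stabilises hypoxia-inducible factor, and no wild-type group received it, so its effect was measured in ob/ob mice alone. Glomeruli, the filtering units of the kidney, were pulled out with magnetic beads. Their total RNA was hybridised to one-colour Agilent arrays. The labels do not say whether a sample is 1 mouse or a pool, so p-values measure the spread between these samples, which may be partly technical.

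The array design places both probes on the forward strand of build mm9, as given in the files. The Ccl2 probe lies on chromosome 11 at chr11:81850650-81850709 and starts at base 501 of transcript NM_011333. The Ccr2 probe lies on chromosome 9 at chr9:124022948-124023007 and starts at base 2657 of NM_009915. The sources used here do not give the exon or untranslated region they match. The first 30 of the 60 bases of each probe are shown, because all values of both genes rest on these 2 probes.
Ccl2: tgtaggagtgaccagtgtgacagtgaacta
Ccr2: gaagcagggacagaattcttgctttgaaaa
The G and C content was 45% in the Ccl2 probe and 35% in the Ccr2 probe, over all 60 bases. No other probe on the array shared a run of 14 or more bases with either, and the longest shared run was 13 bases. Each probe had 1 spot per array, so no second probe or spot checks its values.

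Levels are given as log2 of the processed signal relative to the 75th percentile of the same array, which lay between 210.4 and 325.3 units. Between 62.3% and 68.3% of probes stood well above background on an array, and no probe was saturated. Podocyte markers were high on every array, with list medians of 3.63 to 4.47 in ob/ob enarodustat, 4.36 to 4.54 in ob/ob vehicle and 5.13 to 5.24 in wild-type samples, as a glomerular preparation would have. Proximal tubule markers varied more, with medians of 0.21, 3.05 and 0.15 in ob/ob enarodustat replicates 1 to 3, -0.16, 0.75 and -1.87 in ob/ob vehicle replicates 1 to 3, and 1.26, 0.03 and 3.77 in wild-type replicates 1 to 3. Ob/ob enarodustat replicate 3 was alone on a second slide and the other 8 arrays shared the first.

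Ccl2 was far higher in ob/ob glomeruli than in wild-type glomeruli, whether or not the ob/ob mice had received enarodustat. Its log2 levels were 0.75, 1.18 and 0.79 in ob/ob enarodustat, 1.80, 1.26 and 1.75 in ob/ob vehicle, and -2.82, -3.46 and -2.74 in wild-type samples. The processed signals behind them were 431, 521 and 426 units, 1120, 692 and 883 units, and 46.1, 28.6 and 31.6 units, in the same order. The 3 groups occupied separate ranges, with the wild-type samples lowest and the lowest ob/ob vehicle sample just above the highest enarodustat sample. On its own array, the Ccl2 probe was brighter than 80.1% to 82.8% of probes in ob/ob enarodustat, 83.1% to 86.3% in ob/ob vehicle and 46.2% to 52.3% in wild-type samples. It was well above background on all 9 arrays, so the wild-type level is a measured one.

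Ccr2 was also higher in ob/ob glomeruli than in wild-type glomeruli, with fold changes below those of Ccl2. Its log2 levels were -2.0, -2.75 and -2.99 in ob/ob enarodustat, -2.20, -2.14 and -2.35 in ob/ob vehicle, and -3.72, -3.78 and -4.26 in wild-type samples. The signals were 64, 34.1 and 31 units in ob/ob enarodustat, 69.9, 65.7 and 51.3 units in ob/ob vehicle, and 24.7, 23 and 11 units in wild-type samples. All 6 ob/ob samples lay above all 3 wild-type samples. The enarodustat samples spread on both sides of the ob/ob vehicle samples, with replicate 1 the highest of all 9 and replicates 2 and 3 below every ob/ob vehicle sample. The Ccr2 probe was well above background on all 9 arrays and never saturated. Glomeruli are bulk samples, so more cells carrying a transcript and more transcript per cell cannot be told apart.

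**Figure D1:**
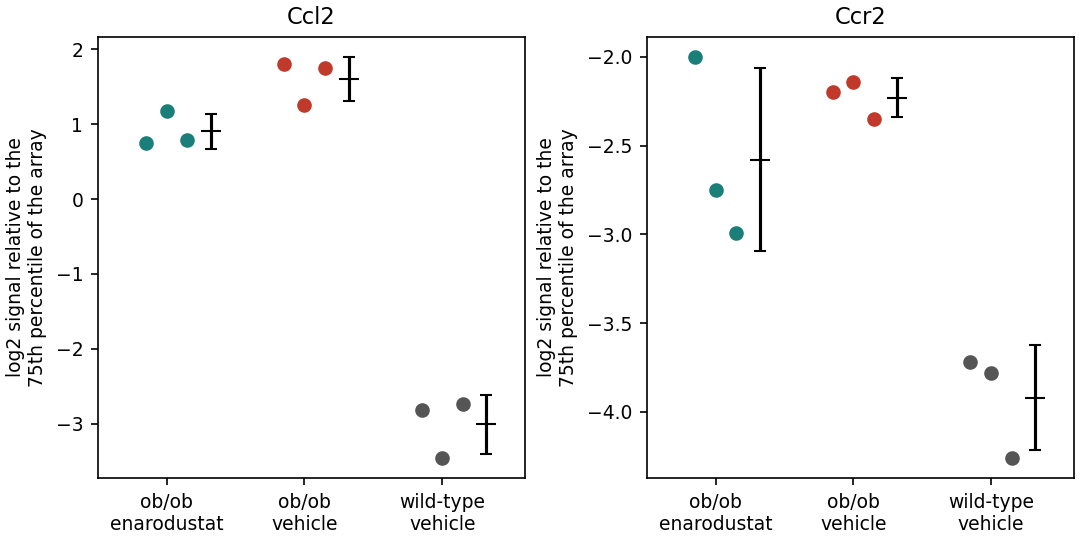
Each point is 1 array, and the vertical axis is the log2 signal of the Ccl2 probe (left) or the Ccr2 probe (right) relative to the 75th percentile of that array. Bars show the group mean ± SD (n = 3). Ccl2 lies between 0.75 and 1.80 in the 6 ob/ob samples and between -3.46 and -2.74 in the wild-type samples, and for Ccr2 the enarodustat and vehicle samples of ob/ob mice overlap.

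The first comparison asks how the pair differs in ob/ob glomeruli when both genotypes received vehicle. Ccl2 averaged 1.61 ± 0.30 in ob/ob vehicle and -3.00 ± 0.40 in wild-type samples (SD, n = 3 each). The log2 change was 4.61 ± 0.24 (SE, 95% interval 4.07 to 5.15), a 24.4-fold higher level, with an adjusted p of 0.000173 in limma, the linear model fitted to all 9 arrays. Among the 24161 features tested, Ccl2 had rank 2 by p-value and rank 7 by the size of the rise. Ccr2 averaged -2.23 ± 0.11 in ob/ob vehicle and -3.92 ± 0.30 in wild-type samples. It was 3.22-fold higher, a log2 change of 1.69 ± 0.25 (95% interval 1.1 to 2.27, limma adjusted p = 0.00706), which gave it rank 422 by p-value. Both genes were thus called higher at an adjusted p under 0.05, where 4.89% of the features tested were called higher, 2.66% lower and 7.55% in either direction. In both the groups did not overlap, which held for 30.7% of features. With normexp background correction, which adds an offset of 50 units before the logarithm, the log2 changes were 3.33 for Ccl2 and 0.60 for Ccr2, both still called. By construction, such an offset narrows differences between dim signals.

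The second comparison asks whether glomeruli of ob/ob mice on enarodustat differ from those of ob/ob mice on vehicle. Neither gene passed, and no feature of the 24161 did (0% called in limma), although 1693 (7.01%) had an unadjusted p under 0.05. Ccl2 averaged 0.91 ± 0.24 in ob/ob enarodustat and 1.61 ± 0.30 in ob/ob vehicle samples. The log2 difference was -0.70 ± 0.24, a 1.62-fold lower level, with a 95% interval of -1.24 to -0.16 before any adjustment, an unadjusted p of 0.0165 and an adjusted p of 0.708 in limma. All 3 enarodustat samples lay below all 3 vehicle samples, as groups without overlap did for 16% of features. Ccr2 averaged -2.58 ± 0.52 in ob/ob enarodustat and -2.23 ± 0.11 in ob/ob vehicle samples. Its log2 difference was -0.35 ± 0.25 (95% interval -0.93 to 0.23, limma adjusted p = 0.786), and the groups overlapped. The Ccr2 difference depended on single enarodustat arrays: it was -0.64 without replicate 1 and -0.14 without replicate 3, the array on the second slide. It was -0.14 too with the slide as a block. The Ccl2 difference was between -0.87 and -0.60 when any 1 array was left out. Its unadjusted p in limma then ran from 0.00676 without wild-type replicate 2 to 0.0581 without ob/ob vehicle replicate 1. With the slide as a block it was 0.0515. Tubule RNA moved with this comparison: the summed level of 9 distal nephron markers, in multiples of the 75th percentile, ranged from 57.6 to 110 in ob/ob enarodustat and from 4.56 to 30.9 in ob/ob vehicle samples. That of 10 proximal tubule markers ranged from 44.5 to 116 in ob/ob enarodustat and from 38.4 to 56.3 in ob/ob vehicle samples. When the mean proximal tubule marker level was added to the model, the log2 differences were -0.81 for Ccl2 and -0.25 for Ccr2, neither called, and the part of distal tubule RNA was not tested.

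The third comparison sets ob/ob mice on enarodustat against wild-type mice on vehicle, and shares arrays with both comparisons above. Ccl2 was 15-fold higher, with a log2 change of 3.91 ± 0.24 (95% interval 3.38 to 4.45, limma adjusted p = 0.000499), rank 4 by p-value and 19 by size of the rise. Ccr2 was 2.52-fold higher, a log2 change of 1.34 ± 0.25 (95% interval 0.75 to 1.92, adjusted p = 0.0151). Both were called higher, where 6.1% of features were called higher, 4.09% lower and 10.2% in either direction, and in both the groups did not overlap, as held for 30.8% of features. An unadjusted p under 0.05 was reached by 26.8% of features here and by 23.6% in the first comparison. The call of Ccr2 was lost when wild-type replicate 3 and enarodustat replicate 2, which had the highest proximal tubule marker medians, were left out together (log2 change 1.25, adjusted p = 0.0746 in limma), and its log2 change was 0.43 with normexp, still called. In log2 units, the enarodustat difference amounted to -15.2% of the ob/ob vehicle difference from wild type for Ccl2 and to -20.8% for Ccr2. These are not shares of the fold changes. Both differences use the same ob/ob vehicle mean, with opposite signs, so an error in it moves both. In the order of group means, ob/ob vehicle stood above ob/ob enarodustat and both above wild type for each gene. For Ccr2 the samples of the ob/ob groups overlapped. The step between the ob/ob groups did not pass the test for either gene.

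**Figure D2:**
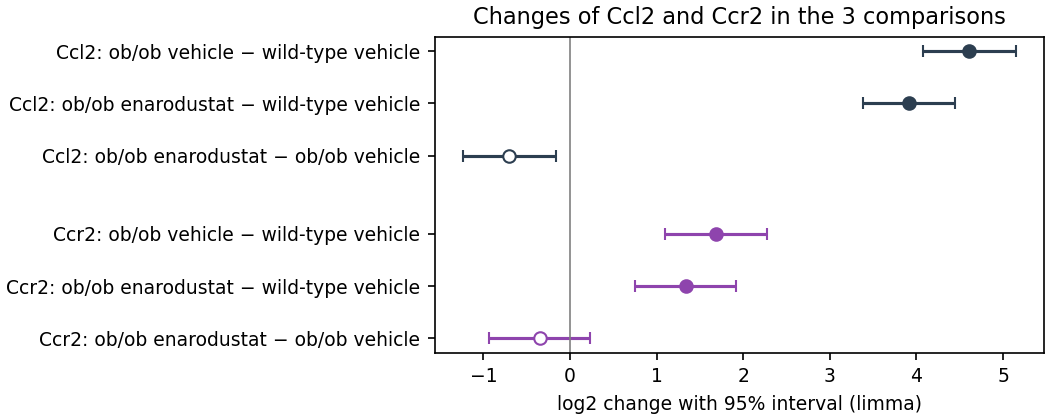
Points are log2 changes of Ccl2 and Ccr2 in the 3 comparisons, horizontal bars are 95% intervals from limma, and filled points have an adjusted p under 0.05. The changes against wild type run from 1.34 to 4.61 and are called, and those of enarodustat against vehicle are -0.70 for Ccl2 and -0.35 for Ccr2 and are not.

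Over the 9 arrays, Ccl2 and Ccr2 had a Pearson correlation of 0.904 (Spearman 0.65), which mostly describes the gap between ob/ob and wild-type arrays. Within groups, arrays with more Ccl2 were not consistently those with more Ccr2. Enarodustat replicate 1 had the highest Ccr2 of all arrays and the lowest Ccl2 of its group, and ob/ob vehicle replicate 2 had the highest Ccr2 and the lowest Ccl2 of its group. The correlation of the deviations from group means was -0.375 over the 9 arrays, which share labelling and scanning, and is given as a description.

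Ccl2 sits in a row of chemokine genes, most of which gave no testable signal. By the order of RefSeq genes (assembly GRCm38.p6), Ccl7 is the next gene, followed within 6 genes by Ccl11, Ccl12, Ccl8 and Ccl1. Ccl7 and Ccl12 encode further ligands of CCR2 in the mouse, Ccl8 encodes a relative whose human counterpart binds CCR2, and Ccl11 encodes eotaxin, which attracts eosinophils. Of these 5 genes 4 were too dim to be tested, each read by 1 probe. Ccl7 had log2 levels of -5.13, -5.17 and -5.94 in ob/ob enarodustat, -5.36, -5.13 and -3.70 in ob/ob vehicle and -7.25, -7.34 and -6.84 in wild-type samples. Only ob/ob vehicle replicate 3 was well above background for it, so no fold is given. Ccl12 was well above background on 3 arrays, 1 of each group, Ccl8 on 2 arrays and Ccl11 on 0. Ccl8 reached -2.77 in enarodustat replicate 2 and lay between -7.41 and -4.60 on the other arrays. Ccl1, which encodes a ligand of CCR8, was well above background on all 9 arrays and did not pass, with a log2 change of -0.28 ± 0.17 between ob/ob vehicle and wild type (adjusted p = 0.367 in limma).

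None of the receptor genes listed around Ccr2 was called between ob/ob vehicle and wild type. On one side of Ccr2, the gene order is Ccr3, Ccr1l1 and Ccr1. Ccr1 and Ccr1l1 were not well above background on any array, and Ccr3, an eosinophil receptor gene, was so on 6. Further out, Xcr1, a dendritic cell receptor gene, was below that limit throughout. Cxcr6, the receptor gene for CXCL16, had a log2 change of -0.23 ± 0.28, and Ccrl2, an atypical receptor gene much further along the same chromosome, one of -0.18 ± 0.18. Of the 7 genes listed around Ccr2, 4 were tested and 0 were called in that comparison.

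Ccr9, which encodes a receptor that guides lymphocytes to the gut, was the exception in enarodustat-treated mice. It had log2 levels of -4.34, -4.50 and -4.37 in ob/ob enarodustat, -4.93, -4.62 and -4.71 in ob/ob vehicle and -5.25, -5.78 and -4.78 in wild-type samples. It was higher in enarodustat-treated ob/ob than in wild-type samples (log2 change 0.87 ± 0.23, limma adjusted p = 0.0479), and had a log2 change of 0.52 ± 0.23 between ob/ob vehicle and wild type (adjusted p = 0.215). That call was lost when any 1 array except wild-type replicate 3 was left out (adjusted p up to 0.124). All values were dim, and wild-type replicate 2 was not well above background. A second Ccr9 probe was below that limit on all arrays.

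Neither atypical receptor that binds CCL2 passed the test in any comparison. Ackr2, the scavenger of inflammatory CC chemokines, had log2 levels of 1.24, 1.08 and 1.51 in ob/ob enarodustat, 1.02, 0.22 and 0.92 in ob/ob vehicle and 1.1, 0.93 and 1.47 in wild-type samples. Its log2 difference was 0.56 ± 0.24 between enarodustat and vehicle in ob/ob mice and -0.44 ± 0.24 between ob/ob vehicle and wild type, with adjusted p-values of 0.708 and 0.308 in limma. Ackr1, the Duffy antigen receptor gene, had a log2 change of -0.40 ± 0.25 between ob/ob vehicle and wild type (adjusted p = 0.379), and was well above background on 0 enarodustat, 1 ob/ob vehicle and 3 wild-type arrays.

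**Figure D3:**
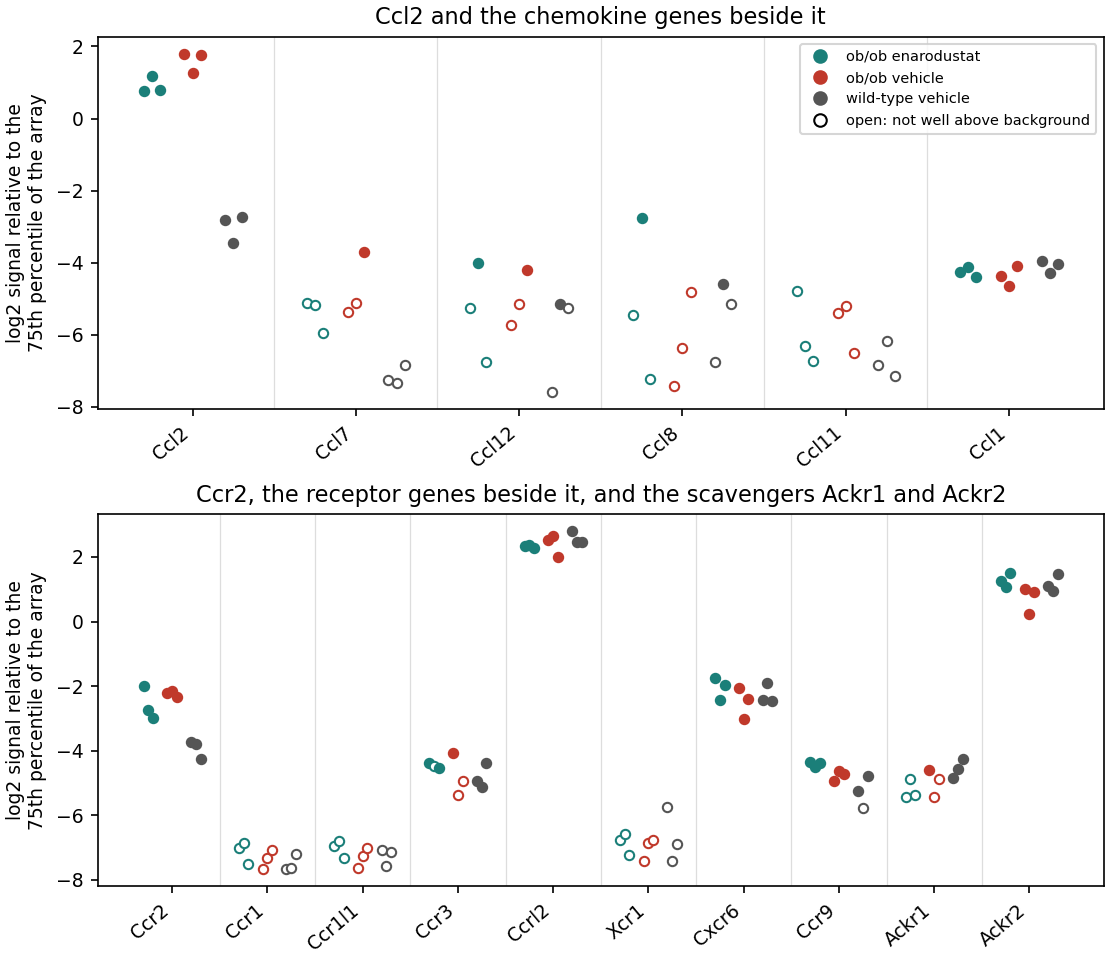
Each point is 1 array and the vertical axis is the log2 signal relative to the 75th percentile of the array, for Ccl2 with the chemokine genes beside it (top) and for Ccr2 with nearby receptor genes and both scavengers (bottom). Open points are not well above background. For Ccl2, Ccr2 and Ccl7 all ob/ob samples lie above all wild-type samples, and Ccl7, Ccl8, Ccl11 and Ccl12 are mostly open points.

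Of 23 tested genes that induce or regulate Ccl2, 5 rose and 0 fell in ob/ob vehicle against wild-type samples, where 4.89% of all features rose and 2.66% fell. Their median log2 change was 0.34, against 0.02 over all features. They were Il1r1, the interleukin-1 receptor, Tlr4 and Tlr2, toll-like receptors, and Nfkbia and Nfkbiz, genes that NF-kappaB itself induces. Il1r1 had log2 levels of 0.32, 0.41 and 0.50 in ob/ob enarodustat, 0.72, 0.79 and 0.98 in ob/ob vehicle and -0.23, -0.76 and -0.83 in wild-type samples. The groups did not overlap, with the ob/ob vehicle samples highest. Its log2 change was 1.44 ± 0.17 in ob/ob vehicle (adjusted p = 0.0035) and 1.02 ± 0.17 in ob/ob enarodustat (adjusted p = 0.00957), both against wild type in limma. Tlr4 rose by 1.43 ± 0.21 on the log2 scale in ob/ob vehicle and by 0.99 ± 0.21 in ob/ob enarodustat, and Tlr2 by 0.77 ± 0.14 and 0.65 ± 0.14, in that order. The count rests on several arrays. It was 3 without any 1 of the ob/ob vehicle replicates, enarodustat replicate 1 or 2 or wild-type replicate 3, and 2 without wild-type replicate 2. The call of Nfkbia (0.72 ± 0.16) was lost without any 1 array except wild-type replicate 1, that of Nfkbiz (1.02 ± 0.25) without any 1 array except enarodustat replicate 3, and that of Tlr2 without wild-type replicate 2. Il6 was too dim to be tested.

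Against wild type, 4 of these 23 genes rose in ob/ob enarodustat, all among the 5 above, and 0 fell, with a median of 0.06 against -0.01 over all features. That count was 2 without enarodustat replicate 1 or 2, and 1 without enarodustat replicate 3 or wild-type replicate 2 or 3. Tlr4 and Tlr2 each lost this call without wild-type replicate 2 or 3 or enarodustat replicate 3, Tlr4 also without enarodustat replicate 1 and Tlr2 without enarodustat replicate 2. None was called between enarodustat and vehicle in ob/ob mice, where the median was -0.20 against -0.03 over all features. All these counts read 1 probe per gene. With each probe as its own feature, 1 of 5 Ikbkb probes was called in ob/ob enarodustat against wild type, with log2 changes from -1.01 to 0.13. For Tlr4, 2 of 3 probes were called in ob/ob vehicle against wild type, with log2 changes from 0.11 to 1.43.

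Of 21 tested genes of the signalling chain behind CCR2, 6 rose and 0 fell in ob/ob vehicle against wild-type samples, beside 4.89% and 2.66% of all features. Their median log2 change was 0.47, against 0.02 over all features. Gng2, a G protein gamma subunit gene, had log2 levels of 0.61, 0.65 and 0.76 in ob/ob enarodustat, 0.90, 0.68 and 0.88 in ob/ob vehicle and -0.86, -1.01 and -0.75 in wild-type samples. All ob/ob samples lay above all wild-type samples, and both ob/ob groups overlapped. Its log2 change against wild type was 1.54 ± 0.12 in ob/ob enarodustat and 1.69 ± 0.12 in ob/ob vehicle, with adjusted p-values of 0.000846 and 0.000502 in limma. Rac2, the Rac of blood cells, rose by 1.25 ± 0.15 in ob/ob enarodustat and 1.59 ± 0.15 in ob/ob vehicle. Vav1, a blood cell activator of Rac, rose by 1.68 ± 0.22 and 1.87 ± 0.22 in that order.

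Pik3r5, which encodes the regulatory subunit of phosphoinositide 3-kinase gamma, was not well above background on any wild-type array. It was kept for testing through the ob/ob groups alone, so against wild type it could only be called higher. It was at least 2.48-fold higher in ob/ob enarodustat and at least 2.67-fold higher in ob/ob vehicle, a bound set on each wild-type array by the dimmest probe well above background or its own value, whichever was higher. Prkcb, a protein kinase C gene, rose by 1.73 ± 0.28 in ob/ob vehicle, and Pik3cg, the catalytic subunit of the same kinase, by 0.85 ± 0.20, a call that was lost when any 1 of the 9 arrays was left out. Gnai2, the inhibitory G protein alpha subunit, had log2 changes of 0.34 ± 0.13 in ob/ob enarodustat and 0.41 ± 0.13 in ob/ob vehicle against wild type, and neither passed (adjusted p = 0.127 and 0.0914 in limma). In ob/ob enarodustat 6 of the 21 genes rose against wild type, and none was called between enarodustat and vehicle in ob/ob mice. These counts read 1 probe per gene. With each probe as its own feature, 1 of 4 tested Plcb2 probes was called lower in ob/ob vehicle against wild type, with log2 changes from -1.06 to -0.11. For Prkcb, 2 of 3 probes were called in that comparison, with log2 changes from 0.36 to 1.73.

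**Figure D4:**
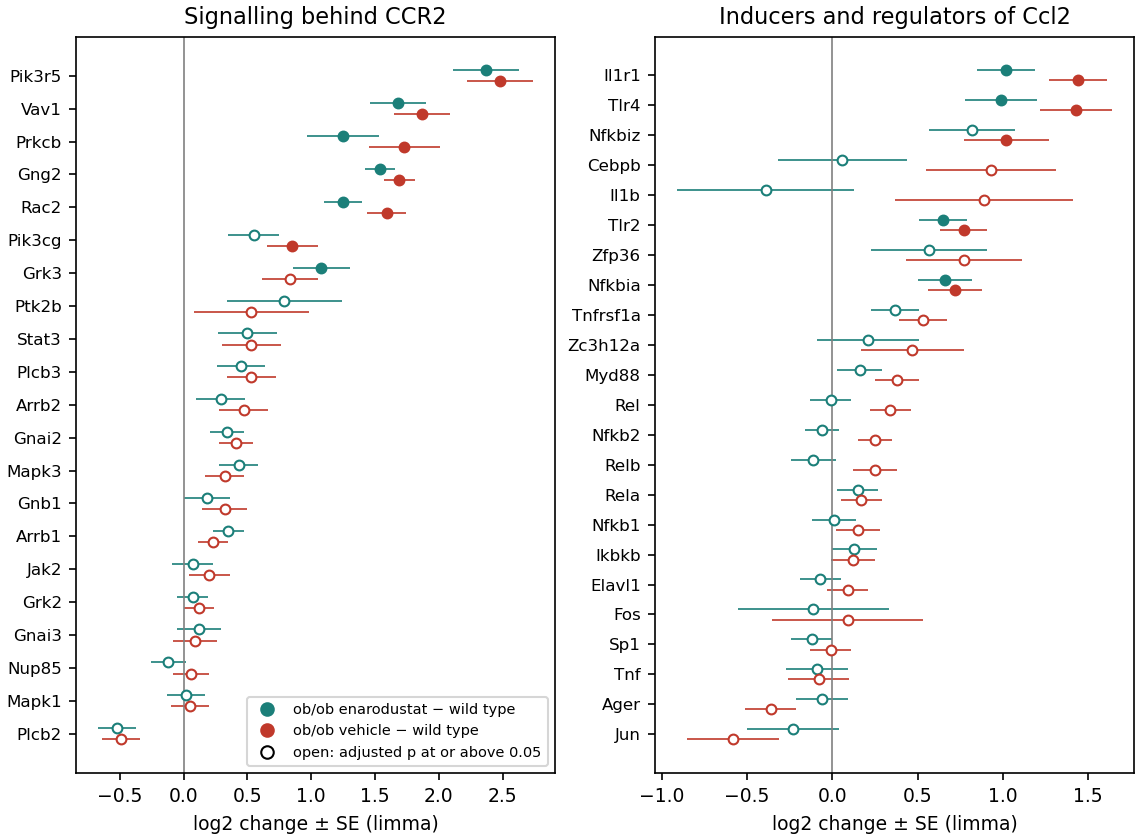
Log2 changes ± SE from limma are shown for 21 genes behind CCR2 (left) and 23 inducers or regulators of Ccl2 (right), for ob/ob enarodustat and ob/ob vehicle, each against wild type. Filled points have an adjusted p under 0.05. Pik3r5, Vav1, Gng2, Rac2 and Prkcb lie at 1.25 or above in both, and most of the other genes lie between -0.6 and 1.

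Ccr2 marks blood-borne cells, so markers of those cells were set beside it. Of 10 tested markers of classical monocytes, the cells that carry most CCR2, 6 rose and 0 fell in ob/ob vehicle against wild-type samples, with a median log2 change of 1.01. For this and the lists that follow, 4.89% of all features rose and 2.66% fell in ob/ob vehicle, with a median of 0.02, and 6.1% rose and 4.09% fell in ob/ob enarodustat, with a median of -0.01. Ly6c2, their defining surface gene, had log2 levels of 7.35, 7.65 and 7.46 in ob/ob enarodustat, 7.42, 7.11 and 7.65 in ob/ob vehicle and 6.20, 6.09 and 6.49 in wild-type samples. The ob/ob groups overlapped and both lay above wild type. The log2 changes of Ly6c2 were 1.22 ± 0.17 in ob/ob enarodustat and 1.14 ± 0.17 in ob/ob vehicle. Its wild-type mean of 6.26 lay above the wild-type list medians of podocytes (5.13 to 5.24) and glomerular endothelium (4.44 to 4.69). Which cells supply this signal was not tested, so its rise cannot be read as one of monocytes alone. Fcgr1, an Fc receptor gene, was well above background on 1 enarodustat array, all 3 ob/ob vehicle arrays and 0 wild-type arrays, so it was tested through ob/ob vehicle alone. This gene is 1 of the 6, and against wild type it could only be called higher. It was at least 2.67-fold higher in ob/ob vehicle than in wild type, and no fold is given for ob/ob enarodustat.

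Markers of cells that carry little CCR2 rose as well. Of 7 markers of non-classical monocytes, 5 rose and 0 fell in ob/ob vehicle, with a median of 2.01. Cx3cr1, the fractalkine receptor gene of these cells, had log2 levels of -0.37, -0.39 and -0.79 in ob/ob enarodustat, 0.32, 0.15 and -0.24 in ob/ob vehicle and -2.35, -1.37 and -2.07 in wild-type samples. Each group lay apart from the others, with ob/ob vehicle highest and wild type lowest. Its log2 difference between enarodustat and vehicle was -0.59 ± 0.26 and did not pass (adjusted p = 0.708 in limma). Fcgr4, another Fc receptor gene, rose by 2.44 ± 0.22 in ob/ob enarodustat and 2.61 ± 0.22 in ob/ob vehicle against wild type.

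Of 16 tested macrophage markers, 10 rose and 0 fell in ob/ob vehicle, with a median of 1.83, and 9 rose in ob/ob enarodustat, all against wild type. The second count was 5 with both wild-type replicate 3 and enarodustat replicate 2 left out. Lgals3, which encodes galectin-3, rose by 2.63 ± 0.19 in ob/ob enarodustat and 3.10 ± 0.19 in ob/ob vehicle. Ctss, a lysosomal protease gene, rose by 2.32 ± 0.27 and 2.55 ± 0.27 in that order. Adgre1, which encodes the macrophage surface protein F4/80, had log2 levels of -1.04, -2.35 and -2.36 in ob/ob enarodustat, -0.10, -1.71 and -1.53 in ob/ob vehicle and -4.34, -3.60 and -3.86 in wild-type samples. Replicate 1 stood highest within each ob/ob group. Its log2 change was 2.02 ± 0.49 in ob/ob enarodustat (adjusted p = 0.0368) and 2.82 ± 0.49 in ob/ob vehicle (adjusted p = 0.0121) against wild type in limma, and the enarodustat call was lost when any 1 of the enarodustat or wild-type arrays was left out.

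The summed level of the 16 macrophage markers, in multiples of the 75th percentile, ranged from 62.1 to 70.4 in ob/ob enarodustat, 87.1 to 93.3 in ob/ob vehicle and 37.1 to 48.4 in wild-type samples. These sums did not overlap, but the list medians of the ob/ob groups did, at -0.38 to 0.64 in ob/ob enarodustat and -0.25 to 1.21 in ob/ob vehicle. Of the 16 markers, 3 had ob/ob groups without overlap, all lower with enarodustat, beside 16% of all features. For the classical monocyte list it ranged from 227 to 270, 193 to 268 and 118 to 159, in the same order of groups, and for the non-classical list from 50.3 to 90.8, 68.0 to 113 and 70.0 to 120. Single bright genes carry most of the sums of both monocyte lists: Ly6c2, and in the non-classical list Nr4a1, a transcription factor gene with mean log2 levels of 5.70 in ob/ob enarodustat, 6.07 in ob/ob vehicle and 6.45 in wild-type samples. The non-classical sum therefore runs against the median change of that list. Podocyte markers moved the other way: 9 of 13 fell in ob/ob enarodustat and 7 of 13 in ob/ob vehicle, with medians of -1.08 and -0.81 against wild type. The ob/ob vehicle count was 3 when its own replicate 1 or the wild-type replicate 2 was left out, and 4 when its own replicate 2 or the wild-type replicate 3 was. Of 11 mesangial and smooth muscle markers, 3 rose in ob/ob enarodustat and 4 in ob/ob vehicle against wild type, with medians of 0.50 and 0.70. The first count was 1 without enarodustat replicate 1 or 3 and 2 without enarodustat replicate 2, and the second was 2 and 1 without ob/ob vehicle replicates 1 and 2. Of 10 glomerular endothelium markers, 1 was called in ob/ob enarodustat and 0 in ob/ob vehicle, where limma gave 3 an unadjusted p under 0.05, with medians of 0.17 and 0.26. The 1 call was lost in each fit without an array, other than those without wild-type vehicle replicate 1 or ob/ob vehicle replicate 1. The part of any of these cells in the Ccl2 and Ccr2 results was not tested. The counts against wild type in ob/ob enarodustat were 4 of 10 classical markers, with the dim Fcgr1 among them, and 5 of 7 non-classical markers. They were 2 of 10 without enarodustat replicate 1 or wild-type replicate 2, and 3 of 7 without enarodustat replicate 1 or 2. When mean tubule marker level was added to the model, 5 macrophage and 3 non-classical markers rose in ob/ob vehicle against wild type. Between enarodustat and vehicle in ob/ob mice none of the 33 markers of these 3 lists was called, and their medians were -0.25, -0.27 and -0.23 for classical monocytes, non-classical monocytes and macrophages, against -0.03 over all features.

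Of 10 tested markers of lymphocytes and natural killer cells, 4 rose in ob/ob enarodustat, with a median of 0.41, and 2 in ob/ob vehicle, with a median of 0.16, both against wild type. Of 6 neutrophil markers, 1 rose in each, with medians of 0.56 and 0.81 in that order. Ob/ob vehicle replicate 3 stood apart in neutrophil markers, with a list median of 2.27 against -2.09 and -0.38 in replicates 1 and 2 of its group. Lck, a T cell kinase gene, rose by 1.12 ± 0.15 and the neutrophil gene Ly6g by 1.52 ± 0.26. The call of Lck was lost when its probes were averaged. Nkg7, a gene of cytotoxic lymphocytes, rose by 1.20 ± 0.27. Leaving out enarodustat replicate 2, wild-type replicate 2 or 1 of the ob/ob vehicle arrays ended that call (adjusted p up to 0.1 in limma). Cd3e, the defining T cell gene, had a log2 change of -0.11 ± 0.15. Cd79a, Klrb1c and Ncr1 were too dim to be tested.

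By the pattern over the 9 arrays, the named genes most like Ccl2 out of 15436 were Gng2 (r = 0.995), Prss23 (0.993), Chil5 (0.992), Gpr176 (0.990) and Fam102b (0.987). Prss23 encodes a serine protease and Gpr176 an orphan G protein-coupled receptor. These values mostly describe the gap between ob/ob and wild-type arrays, which all 5 genes share with Ccl2. Measured on deviations from group means, the correlations with Ccl2 were 0.769, 0.594, 0.693, 0.319 and 0.608 in the same order.

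Gpr176 had log2 levels of 0.47, 0.17 and 0.36 in ob/ob enarodustat, 0.99, 0.57 and 0.90 in ob/ob vehicle and -4.56, -5.02 and -5.06 in wild-type samples. Prss23 had levels of 1.52, 1.41 and 1.52, then 1.76, 1.74 and 1.87, and then -0.76, -1.02 and -0.47 in the same order of groups. As for Ccl2, the ob/ob enarodustat samples of both lay below the ob/ob vehicle samples without overlap, beside 16% of all features without overlap. Chil5 and Fam102b did so too, and for Gng2 the ob/ob groups overlapped. These genes were picked by likeness to Ccl2 on these same arrays, so a shared order of groups is no independent support. The log2 differences between those groups were -0.49 ± 0.18 for Gpr176, -0.30 ± 0.14 for Prss23, -0.45 ± 0.21 for Chil5, -0.31 ± 0.10 for Fam102b and -0.15 ± 0.12 for Gng2, and none passed in limma. Chil5 was well above background on 1 enarodustat array, all 3 ob/ob vehicle arrays and 0 wild-type arrays, so it too was tested through ob/ob vehicle alone. It was at least 2.23-fold higher in ob/ob vehicle than in wild type.

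The genes most like Ccr2 were Clec4a3 (r = 0.995) and Clec4a1 (0.991), lectin receptor genes of myeloid cells, Mcoln2 (0.987), an endolysosomal channel gene, Fyb (0.987), an adaptor of blood cells, and Prkcb (0.986). Their correlations with Ccr2 on deviations from group means were 0.969, 0.949, 0.932, 0.912 and 0.925. The genes most like Ccl2 and Ccr2 were picked by r over these same arrays, so such values are not independent of the choice. Clec4a3 had log2 levels of -1.37, -2.40 and -2.67 in ob/ob enarodustat, -1.62, -1.67 and -1.86 in ob/ob vehicle and -3.46, -3.90 and -4.57 in wild-type samples. The order of the arrays was close to that of Ccr2, with enarodustat replicate 1 highest and wild-type replicate 3 lowest. Clec4a1 had levels of 0.00, -0.49 and -0.72 in ob/ob enarodustat, 0.11, 0.05 and -0.17 in ob/ob vehicle and -1.68, -1.50 and -1.97 in wild-type samples. In ob/ob vehicle against wild type, Clec4a3 was 4.78-fold, Clec4a1 3.28-fold, Fyb 3.16-fold, Prkcb 3.31-fold and Mcoln2 1.88-fold higher, and all 5 were called in limma. With the tubule covariate the calls of Clec4a3, Prkcb and Mcoln2 were lost (adjusted p = 0.0515, 0.0506 and 0.0596), and that of Mcoln2 also with normexp (log2 change 0.17). Between enarodustat and vehicle in ob/ob mice, the log2 differences were -0.43 ± 0.36 for Clec4a3, -0.40 ± 0.20 for Clec4a1 and -0.42 ± 0.26 for Fyb. They were -0.48 ± 0.28 for Prkcb and -0.11 ± 0.16 for Mcoln2, and none of the 5 passed.

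The array medians of the marker lists could be set beside both genes in the same way. For Ccr2 the closest list was that of non-classical monocytes (r = 0.949, and 0.567 on deviations from group means), followed by macrophages (0.911 and 0.501) and classical monocytes (0.892 and 0.264). For Ccl2 the closest list was the same (0.954 and 0.224), followed by classical monocytes (0.920 and 0.293), macrophages (0.895 and 0.155) and, among resident cells, glomerular endothelium (0.877 and -0.129), while the podocyte list ran opposite (-0.831 and -0.333). All of these are over 9 arrays in 3 separated groups, share the arrays' scaling, and are descriptions without a test.

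**Figure D5:**
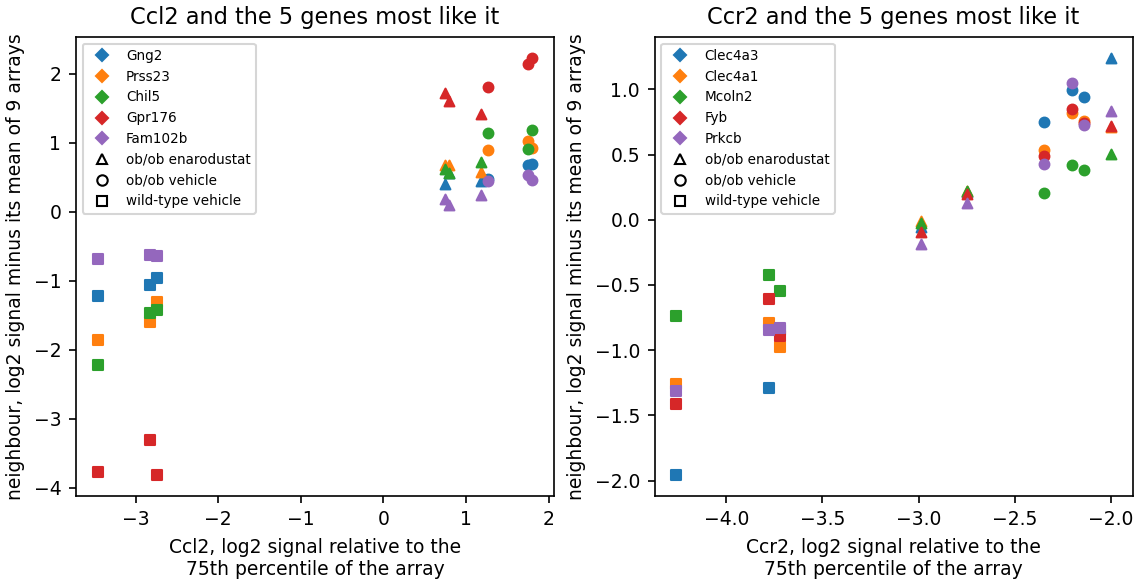
Each point is 1 array, the horizontal axis is the log2 signal of Ccl2 (left) or Ccr2 (right) relative to the 75th percentile of the array, and the vertical axis is the log2 signal of a similar gene minus its mean over the 9 arrays. Colours mark genes and shapes mark groups. The genes like Ccl2 are separated mainly by genotype, with a gap between -2.74 and 0.75 on the Ccl2 axis. The genes like Ccr2 also follow it from array to array within groups. Correlations of deviations from group means were 0.912 to 0.969 for them and 0.319 to 0.769 for the genes like Ccl2. Both sets were picked by r on these same arrays. Ccr2 has the smaller gap between groups, so likeness within groups weighed more in its choice.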

How the data were processed

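Cy3-labelled RNA of 9 samples was measured on Agilent one-colour arrays, per the labels' protocols. Per the file headers, the authors used Agilent Feature Extraction (version 11.5.1.1), and the deposited intensity of a spot is its processed signal, linear, after background subtraction and detrending, with no scaling across arrays. Limma is listed in the submitters' processing notes with no step attached. The deposited value table holds log2 values of the authors, found here to equal log2 processed signals less a constant near the 75th percentile of the array (median difference of 0.0037 to 0.0069), with no gene centring. Its column medians were -3.04, -2.95 and -3.05 in ob/ob enarodustat, -3.10, -3.07 and -3.06 in ob/ob vehicle and -3.07, -3.03 and -2.93 in wild-type samples.

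Here, log2 processed signals were shifted to a 75th percentile of 0 per array. Control and outlier spots were left out, which removed 32 probes that had nothing else on some array. A probe was kept if all arrays of any 1 group had it well above background (36671), and a gene was read from its probe with the highest mean, which gave 24161 features, 18272 with a gene name. Names were updated through RefSeq tables of assembly GRCm38.p6: accessions placed 32975 probes, current symbols 10221 and older ones 518, and of the 12859 unmatched probes 2129 kept the name in the files. The limma 3.58.1 fit in R 4.3.3 held 3 groups and all 9 arrays, with Benjamini-Hochberg adjustment over all features and calls at an adjusted p under 0.05. The data.table package was version 1.17.8, and figures used matplotlib 3.10.9 and pandas 2.3.3 in Python 3.11.15. The fit was also run on simulated data with independent normal errors and 200 changed features. These data held no slide, tubule or array effects, so that run does not check the fit against them, and its outcome is not reported here.

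Ccl2, Ccr2 and all gene lists were chosen with earlier results of these data known, so no list count is independent support. The named genes were both members, every measured gene of the ligand, neighbour and scavenger lists, up to 4 called genes with the smallest p per other list and its defining gene, and the 5 most similar named genes by Pearson correlation. Not every gene this rule allows is printed, and 1 gene was left out of each of 2 lists, the genes around Ccr2 and the inducers of Ccl2, and is not reported here. Nfkbiz and Pik3cg complete counts of 6 or fewer and were named after their values were seen. The number of arrays limits the precision.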

Additional observations from a re-analysis of the deposited data

How the results depend on the processing

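Each of the 6 results for Ccl2 and Ccr2 was recomputed under 23 alternatives, and all kept their direction. All kept their side of the threshold except Ccr2 in ob/ob enarodustat against wild type, whose log2 change was 1.25 (limma adjusted p = 0.0746) with both wild-type replicate 3 and enarodustat replicate 2 left out, where fewer arrays were fitted. Leaving out 1 array at a time, Ccl2 ranged from 4.38 to 4.78 in ob/ob vehicle against wild type, from 3.68 to 4.05 in ob/ob enarodustat against wild type and from -0.87 to -0.60 between the ob/ob groups. Ccr2 ranged from 1.52 to 1.79, from 1.05 to 1.54 and from -0.64 to -0.14 in the same order. The features called in ob/ob vehicle against wild type were 1824, and 752 with the tubule covariate, 923 to 1745 when 1 array was left out, 1170 with wild-type replicate 3 and enarodustat replicate 2 both out, 1005 with dim probes kept and 4179 under array weights. In ob/ob enarodustat against wild type they were 2464, and 1148 with both wild-type replicate 3 and enarodustat replicate 2 left out, 1214 to 2128 when 1 array was left out, 1367 with the slide as a block, 1230 with dim probes kept and 4526 under array weights. Between the ob/ob groups the count was 0 under all alternatives except without enarodustat replicate 3, where it was 5.

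The same replicate numbers did not pair the samples: the correlations of deviations between same-numbered arrays ran from -0.31 to 0.27. With the replicate number as a block, 1408 features were called in ob/ob vehicle against wild type, 0 between the ob/ob groups and 1956 in ob/ob enarodustat against wild type. The log2 changes of Ccl2 with this replicate block were 4.61, -0.70 and 3.91 in that order, and those of Ccr2 were 1.69, -0.35 and 1.34, with no change of call. The slide as a block, which takes enarodustat replicate 3 out of the comparisons, changed no call of Ccl2 or Ccr2.

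For other named genes, 1797 of the values at alternative settings kept direction and side of the threshold, 136 lost the call, 1 gained it (Ccr9 in ob/ob vehicle against wild type, 0.90 with array weights) and 4 changed sign, all of uncalled changes in ob/ob vehicle against wild type. Ccl1 (-0.28) had 0.00 with normexp. Cd3e (-0.11) had 0.07 with the mean of probes. When 1 array was left out, Ccrl2 (-0.18) ranged from -0.31 to 0.01 and Cxcr6 (-0.23) from -0.45 to 0.04. The cause was not tested. The genes called among inducers of Ccl2 ranged from 2 to 9 in ob/ob vehicle and from 0 to 5 in ob/ob enarodustat, both against wild type, and those behind CCR2 from 5 to 8 and from 4 to 8. Signals of 11 to 69.9 units limit what the Ccr2 probe can show.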

Other observations

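Between ob/ob enarodustat and ob/ob vehicle, where no feature was called, the groups did not overlap for 7 of the 23 tested inducers or regulators of Ccl2, 6 of them lower with enarodustat, against 16% of all features. The lower ones were the NF-kappaB subunit genes Rel (log2 difference -0.35 ± 0.12), Nfkb2 (-0.31 ± 0.10) and Relb (-0.36 ± 0.13), Il1r1 (-0.42 ± 0.17), Tlr4 (-0.45 ± 0.21) and the adaptor gene Myd88 (-0.23 ± 0.13). The higher one was Ager (0.30 ± 0.15). Their adjusted p-values in limma lay between 0.708 and 0.764, and they were singled out after their values were seen. Of the 21 genes behind CCR2, 0 had groups without overlap in this comparison.

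Il1b, an inducer of Ccl2, had log2 levels of -2.79, -1.79 and -3.76 in ob/ob enarodustat, -2.21, -1.66 and -0.64 in ob/ob vehicle and -2.14, -2.69 and -2.35 in wild-type samples, a difference of -1.28 ± 0.52 between the ob/ob groups that did not pass (adjusted p = 0.708 in limma). Its highest level was in ob/ob vehicle replicate 3, the array with the highest neutrophil marker median (2.27), and the part of neutrophil RNA was not tested.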
